A study of Mus musculus with 3 samples.

Results

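Interferon-induced macrophages of the mouse aorta were selected as single cells that carried both a macrophage transcript signature and transcripts of interferon-stimulated genes. A cell was kept when its leading hashtag had at least 3 times the UMIs of the next one, when at most 10% of its UMIs were mitochondrial and when it held at least 3000 gene UMIs (unique molecular identifiers, each standing for 1 captured transcript). It was gated as a macrophage when C1qa, C1qb and C1qc together reached 20 UMIs per 10000, with no UMI of the B cell gene Cd79a or the T cell gene Cd3e, and as interferon-induced when Ifit1, Ifit2, Ifit3, Rsad2 and Isg15 together reached 10 UMIs per 10000. Of 8471 cell barcodes, 7196 carried 1 hashtag, 5348 also passed the mitochondrial and UMI limits, 2528 were C1q-gated macrophages, and 65 of these were interferon-induced (called members below). The other 2463 C1q-gated macrophages were the comparison group. The C1q gate itself held 2828 cells, of which 300 were set aside for Cd79a or Cd3e, 3 of them past the interferon limit. Because the 5 interferon genes chose the members, their levels, and those of every other transcript in members against the remaining macrophages, are given as a description without a test. Tests were run on surface antibodies, which the selection did not use, and on genotype over mice. The selection used no genotype, but the shares per mouse are its direct product, and the selecting genes are given by genotype as values only.

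The cells were aortic CD45+ leukocytes from 5 Jak2WT and 5 Jak2V617F Myel mice, profiled together by CITE-seq, which reads transcripts and antibody-bound barcodes from the same cells. Jak2V617F Myel mice carried the gain-of-function Jak2V617F allele as Jak2V617F WT/Flex with LysMCre, a recombinase driven by the Lysozyme M promoter of myeloid cells. The Jak2WT mice were littermate controls, the background was C57BL/6, no mouse was treated, and the age at sorting was not given in the sources used here. Mice are numbered here by hashtag: 1 to 5 were Jak2WT, 6, 8 and 10 were Jak2V617F Myel with aortic dilation but without aneurysm, and 7 and 9 were Jak2V617F Myel with aneurysm. LysMCre acts across monocytes, macrophages and neutrophils, and the 3′ transcript counts did not show which cells had recombined. Circulating leukocytes, labelled by an antibody injected before death, were excluded in the sort, and the sort was adjusted so that each genotype gave about the same number of cells, so that only proportions within a mouse could be compared. All 10 mice were sorted and captured as 1 pool, so every library step and any free RNA was shared, and no barcode occurred in more than 1 row. The CD45.2 antibody used for sorting carried a different dye in each genotype, so that dye and genotype cannot be told apart. Doublets of 2 cells of the same mouse carry 1 hashtag and were not removed.

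Type I interferons bind the receptor pair IFNAR1 and IFNAR2, whose kinases JAK1 and TYK2 activate a transcription factor complex that includes STAT2 and IRF9. The complex binds interferon-stimulated response elements in front of antiviral genes. JAK2 serves the interferon-gamma receptor, and also receptors for erythropoietin and several other cytokines. IFIT1, IFIT2 and IFIT3 bind viral RNA and limit its translation, RSAD2 (viperin) makes a chain-terminating nucleotide, and ISG15 is a ubiquitin-like modifier. Macrophages with such transcripts have been described in inflamed tissues, arteries included.

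The 5 selecting genes lay at 3 places in the genome (GRCm38). Ifit2 (34550694 to 34576419), Ifit3 (34583531 to 34588731) and Ifit1 (34640871 to 34650009) were neighbours on the plus strand of chromosome 19. Rsad2 lay on the minus strand of chromosome 12 (26442746 to 26456452) and Isg15 on the minus strand of chromosome 4 (156199424 to 156200818). Promoters from RefSeq (GRCm38.p6, 250 bases before to 50 bases after each start) were searched for a core of the response element, GAAA, any 2 bases and GAAA, and for its reverse complement, TTTC, any 2 bases and TTTC. Overlapping matches were each counted. Of 27025 genes with a promoter in the table, 3.99% held a match, as did 4 of the 5 selecting genes. Isg15 held 3 overlapping matches, Ifit1 and Ifit3 held 2 each and Rsad2 held 1, whereas neither of the 2 Ifit2 promoters in the table held these letters. Of the 8 chemokines considered below, 3 had a promoter in the table and 1 of these, Cxcl10, held a match. The stretches of 60 bases with the match nearest to the start are shown because they hold the element that 4 selecting genes and the chemokine have in common, 5′ to 3′ on the strand of the gene, with the matches in capitals.
Isg15 (chr4:156200860-156200919, minus strand): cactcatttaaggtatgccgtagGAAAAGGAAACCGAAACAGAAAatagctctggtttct
Ifit1 (chr19:34640769-34640828, plus strand): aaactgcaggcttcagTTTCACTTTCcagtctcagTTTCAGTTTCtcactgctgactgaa
Ifit3 (chr19:34583372-34583431, plus strand): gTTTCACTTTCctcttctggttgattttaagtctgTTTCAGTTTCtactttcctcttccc
Rsad2 (chr12:26456548-26456607, minus strand): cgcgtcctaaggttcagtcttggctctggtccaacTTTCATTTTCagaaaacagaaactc
Cxcl10 (chr5:92349078-92349137, minus strand): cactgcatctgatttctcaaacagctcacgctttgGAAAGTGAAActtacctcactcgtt
The match nearest to the start began 66 bases before it in Isg15, 85 in Ifit1, 122 in Ifit3, 120 in Rsad2 and 213 in Cxcl10. A match is a description of the letters and not evidence of binding.

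Most macrophages held none of the 5 transcripts. Of the 2528 C1q-gated macrophages, 63.6% were at 0, 30.5% lay above 0 and below 5 UMIs per 10000, and 3.32% lay between 5 and 10. Above the limit, 40 cells lay between 10 and 20, 17 between 20 and 40, and 8 at 40 or more. The distribution thus fell off without a gap at the limit: the members nearest to it had 10.1, 10.2 and 10.3 UMIs per 10000, and the nearest cells outside had 9.97, 9.93 and 9.90. The median of the members was 16.9 (range 10.1 to 124.7). Members were slightly deeper than the other macrophages, with a median of 13376 against 11561 UMIs per cell, and the share of members was 2.49%, 2.02% and 3.20% among the 843 shallowest, the 842 middle and the 843 deepest macrophages.

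**Figure D1:**
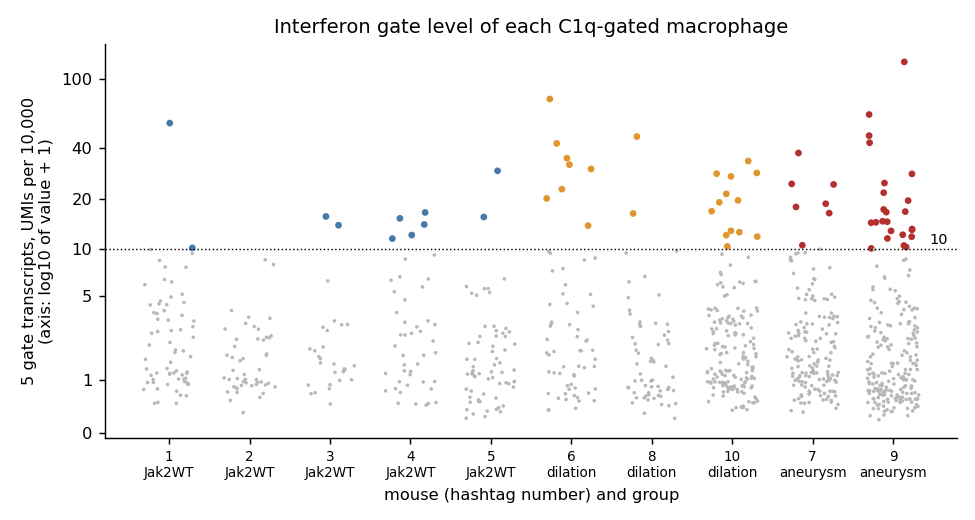
Summed UMIs of Ifit1, Ifit2, Ifit3, Rsad2 and Isg15 per 10000 UMIs in each C1q-gated macrophage with at least 1 of them, by mouse, on an axis of log10 of the value plus 1. Coloured points are the 65 members, grey points the cells below the limit of 10 (dotted line), and the 1607 cells at 0 are not drawn. The highest cell, at 124.7, came from mouse 9, and none of the 5 members of mouse 4 exceeded 16.7.

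Isg15 supplied 50.2% of the selecting UMIs in members and was found in 64 of the 65 cells. Ifit1 was found in 45, Ifit3 in 42, Rsad2 in 40 and Ifit2 in 32. In the summed counts of all members, Isg15 reached 1211 CPM (its UMIs relative to all gene UMIs of the same cells, scaled to a fixed total), Rsad2 408, Ifit3 288, Ifit1 269 and Ifit2 237, against 54.2, 6.22, 7.83, 8.29 and 2.25 CPM in the other macrophages. All 5 genes were detected in 22 members, 4 in 12, 3 in 12, 2 in 10 and only 1 in 9, and in 8 of these last cells that gene was Isg15. Isg15 had a UMI in 26.7% of the other macrophages and in 8.13% of the Cd79a-positive cells. The latter were shallower (a median of 5908 UMIs), and after thinning every cell to 3000 UMIs the shares were 86.2% in members, 11.2% in other macrophages and 4.31% in Cd79a-positive cells. Cells of other kinds also passed the limit of 10: 7 of 627 Cd79a-positive cells (1.12%), 13 of 737 Cd3e-positive cells (1.76%) and 67 of 1118 cells with neither gene outside the C1q gate (5.99%).

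Members were found in 9 of the 10 mice. In the Jak2WT mice they made up 2 of 137 macrophages in mouse 1 (1.46%), 0 of 152 in mouse 2 (0%), 2 of 139 in mouse 3 (1.44%), 5 of 69 in mouse 4 (7.25%) and 2 of 248 in mouse 5 (0.806%). In the Jak2V617F Myel mice they made up 8 of 167 in mouse 6 (4.79%), 2 of 191 in mouse 8 (1.05%) and 13 of 432 in mouse 10 (3.01%), all with dilation, and 7 of 457 in mouse 7 (1.53%) and 24 of 536 in mouse 9 (4.48%), both with aneurysm. The ranges of the genotypes overlapped, and the highest and the lowest share both belonged to Jak2WT mice. Exact Clopper-Pearson 95% intervals were wide, from 0% to 2.40% in mouse 2 (1.97% by the limit of 3 counts that a count of 0 allows), from 2.39% to 16.1% in mouse 4 and from 2.89% to 6.59% in mouse 9, and cover counting error only.

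**Figure D2:**
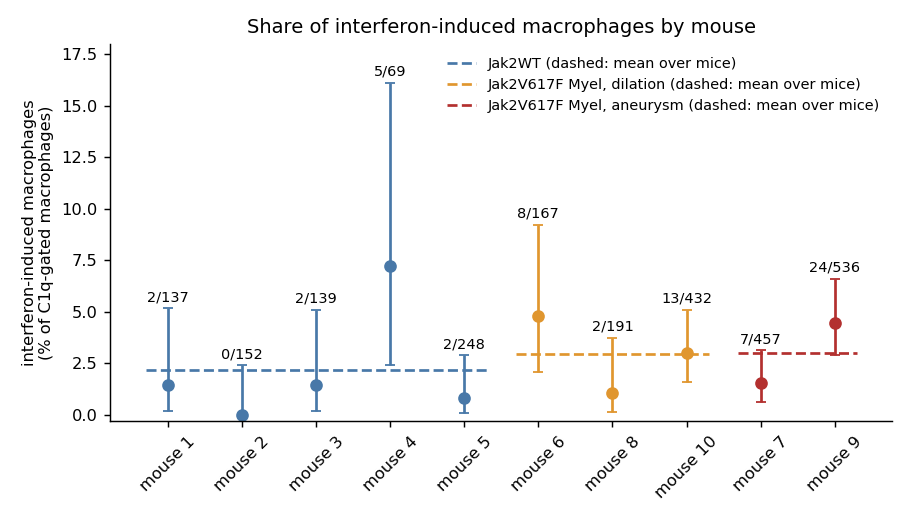
Interferon-induced macrophages as a percentage of C1q-gated macrophages in each mouse, with exact 95% binomial intervals, the number of members and macrophages above each point, and dashed lines for the mean over the mice of a group. The group means lie between 2.19% and 3.005%, while single mice range from 0% to 7.25%.

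The mean share was 2.19% ± 2.89 (SD, n = 5) in Jak2WT and 2.97% ± 1.68 (SD, n = 5) in Jak2V617F Myel mice, a difference of 0.781 percentage points that was smaller than either SD (two-sided exact permutation test, p = 0.619, adjusted over the 3 share comparisons 0.756; smallest p possible 0.00794). Mice with dilation averaged 2.95% ± 1.87 (SD, n = 3) and exceeded Jak2WT by 0.759 points (exact p = 0.75, adjusted 0.756). The 2 mice with aneurysm averaged 3.005% and exceeded the other 8 mice by 0.530 points (exact p = 0.756). Single mice turned these differences, to -0.943 points for aneurysm without mouse 9 (2.003 without mouse 7) and to -0.162 points for dilation without mouse 6 (1.71 without mouse 8). The comparisons also depended on mouse 4, since without it the difference was 2.04 points for genotype (exact p = 0.0714), 2.02 points for dilation and 1.21 points for aneurysm. The differences also depended on the limit: at 20 UMIs per 10000 there were 25 members, of which 2 were from Jak2WT mice, and the difference was 1.34 points for genotype (exact p = 0.0238) and 1.73 points for dilation (exact p = 0.0357), whereas at 5 UMIs per 10000 it was -0.0484 points for genotype, 0.193 points for dilation and -0.484 points for aneurysm. These 2 p-values were not adjusted for the limits tried.

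Members included cells with Lyve1 and cells with Ccr2. Lyve1, the hyaluronan receptor of resident aortic macrophages, reached 5 UMIs per 10000 in 31 of 65 members (47.7%) and in 1264 of 2463 other macrophages (51.3%). A UMI of Ccr2, the receptor that recruits monocytes, was present in 25 members (38.5%) and 684 other macrophages (27.8%), and in 9.25% of Cd79a-positive cells. After thinning to 3000 UMIs these shares were 36.9%, 18.2% and 5.42%. Both were met in 5 members and neither in 14. By mouse, the Lyve1 share of members was 40%, 50%, 42.9%, 50% and 61.5% in mice 4, 6, 7, 9 and 10, against 62.5%, 68.6%, 29.3%, 40.8% and 57.3% in their other macrophages. It was therefore below that of the other macrophages in mice 4 and 6 and above it in mice 7, 9 and 10. The Ccr2 share in the same order of mice was 0%, 37.5%, 42.9%, 50% and 30.8% of members. In their other macrophages it was 26.6%, 18.2%, 47.6%, 47.1% and 14.1%, so that members were lower in mice 4 and 7 and higher in mice 6, 9 and 10. Members made up 2.39% of the Lyve1-high macrophages and 2.76% of the rest.

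The summed counts of the 11 resident macrophage genes also varied by mouse. They came to 8327, 5550, 8834, 8862 and 7284 CPM in the members of mice 4, 6, 7, 9 and 10, and to 10019, 12007, 6798, 6723 and 10226 CPM in their other macrophages. Mouse 6 had the lowest members and the highest other macrophages, and the order was turned in the 2 mice with aneurysm. Cd163, the scavenger receptor for haemoglobin, was lower in the members of all 5 mice (median log2 ratio -0.53), as were Stab1 (-1.05) and the lipid receptor gene Trem2 (-0.78). Fabp5 (-0.99) and Il1a (-1.39) had lower values in the members of all 5 mice too. In mouse 4 they stood at 27.3 and 7.97 CPM in all macrophages, so that its members held at most 1 UMI of each. A direction cannot be read there. Each of these ratios is on the log2(CPM + 10) scale, and 8.96% of the 7292 genes kept (those with a mean of at least 10 CPM, outside the genes of both gates) were lower by any size in every mouse. Ccr2 stood at 0, 724, 92.7, 570 and 193 CPM in the members of mice 4, 6, 7, 9 and 10 and at 174, 117, 234, 340 and 63.6 CPM in the others, higher in mice 6, 9 and 10 only. Clec10a, Cd209d, Cd209f and Cd209g, lectin genes of a resident subset, were above the other macrophages in the members of mouse 7 (686, 222, 714 and 260 CPM against 194, 33.4, 100 and 35.4 CPM), and all 4 were below them in mouse 6.

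Markers of other cells were scarce in members. Cells with a UMI of Cd79a or Cd3e were excluded from both groups, so that low B cell and T cell sums follow in part from the selection. The 5 conventional dendritic cell genes summed to 34.6 CPM against 40.1 CPM in the other macrophages, with Cd209a the most abundant (23.8 CPM) and Clec9a at 0. The 5 T and NK cell genes summed to 7.56 against 12.2 CPM, with Trbc2 the most abundant (5.40 CPM) and Cd3g and Klrb1c at 0. The monocyte list summed to 36.7 against 53.2 CPM, with Chil3 at 0 and Plac8 at 20.5 CPM, and the neutrophil list to 33.5 against 147 CPM. The plasmacytoid dendritic cell list summed to 903 against 529 CPM, but 581 CPM of this were Bst2, which is itself induced by interferon, and Ccr9 and Klk1 were at 0. The B cell list came to 164 against 171 CPM, nearly all of it Ighm, and the non-leukocyte list to 9.72 against 53.8 CPM. Haemoglobin transcripts were uneven: Hbb-bs had 3825 UMIs in members, of which 3785 lay in 1 cell of mouse 10. Cycling genes (Mki67, Top2a, Stmn1 and Birc5) summed to 983 CPM in the members of mouse 6 against 241 CPM in its other macrophages, and were lower in members than in others in mice 4, 7, 9 and 10. The part of these cells in the results below was not tested.

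Beyond the selecting genes, members carried a broad set of interferon-stimulated transcripts. The comparison used the 5 mice with at least 5 members (4, 6, 7, 9 and 10, with 5, 8, 7, 24 and 13 members), of which only mouse 4 was Jak2WT. Of 114 genes in 9 lists by role, 110 were in the count table and 96 were kept. Mx1, Mx2, Pyhin1 and Cxcl11 were not analysed here. Of the 96, 12 (12.5%) were at least 2-fold higher in the members of every mouse and 0 were 2-fold lower, where 0.233% of the 7292 genes kept were 2-fold higher (17 genes) and 0.0137% 2-fold lower (1 gene). These counts depended on the limit, with 2 list genes (2 of all genes) 2-fold higher in every mouse at 5 UMIs per 10000, over 8 mice, and 34 (69 of all) at 20, over 3 mice. The balance of higher and lower genes depended on the scale, with 25 higher and 14 lower at a pseudocount of 1 CPM. By any size, 48 of the 96 were higher in all 5 mice, against 3.14% of all genes, and 2 were lower. Of these, 3 of the 48 and 1 of the 2 had at most 1 UMI in the members of mouse 4, where a direction cannot be read. The median log2 ratio was 0.995 for the lists and -0.13 for all genes. Some genes passed the filter only through their level in members: of the 84 that reached 10 CPM in the other macrophages alone, 10 were 2-fold higher and 42 higher by any size in every mouse. The contrast shares its cells with the selection, so that these counts are descriptions.

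The ratios were smallest in the Jak2WT mouse. The median log2 ratio over the 96 genes was 0.44 in mouse 4, 1.20 in mouse 6, 1.06 in mouse 7, 1.31 in mouse 9 and 0.76 in mouse 10. The genes at least 2-fold higher numbered 26, 54, 51, 55 and 39 in these mice, against 5.77%, 6.24%, 4.64%, 2.39% and 2.17% of all genes kept. Without mouse 4, 28 of the 96 genes and 40 of all genes were 2-fold higher in each of the other 4 mice. None of the 5 members of mouse 4 reached 20 UMIs per 10000 of the selecting genes. Its other macrophages carried more of several transcripts (87.8 CPM of Zbp1, against 15.4 to 20.3 CPM in the other 4 mice). Whether either bears on the smaller ratios was not tested. Genotype and mouse could not be told apart here, because only 1 Jak2WT mouse had enough members.

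**Figure D3:**
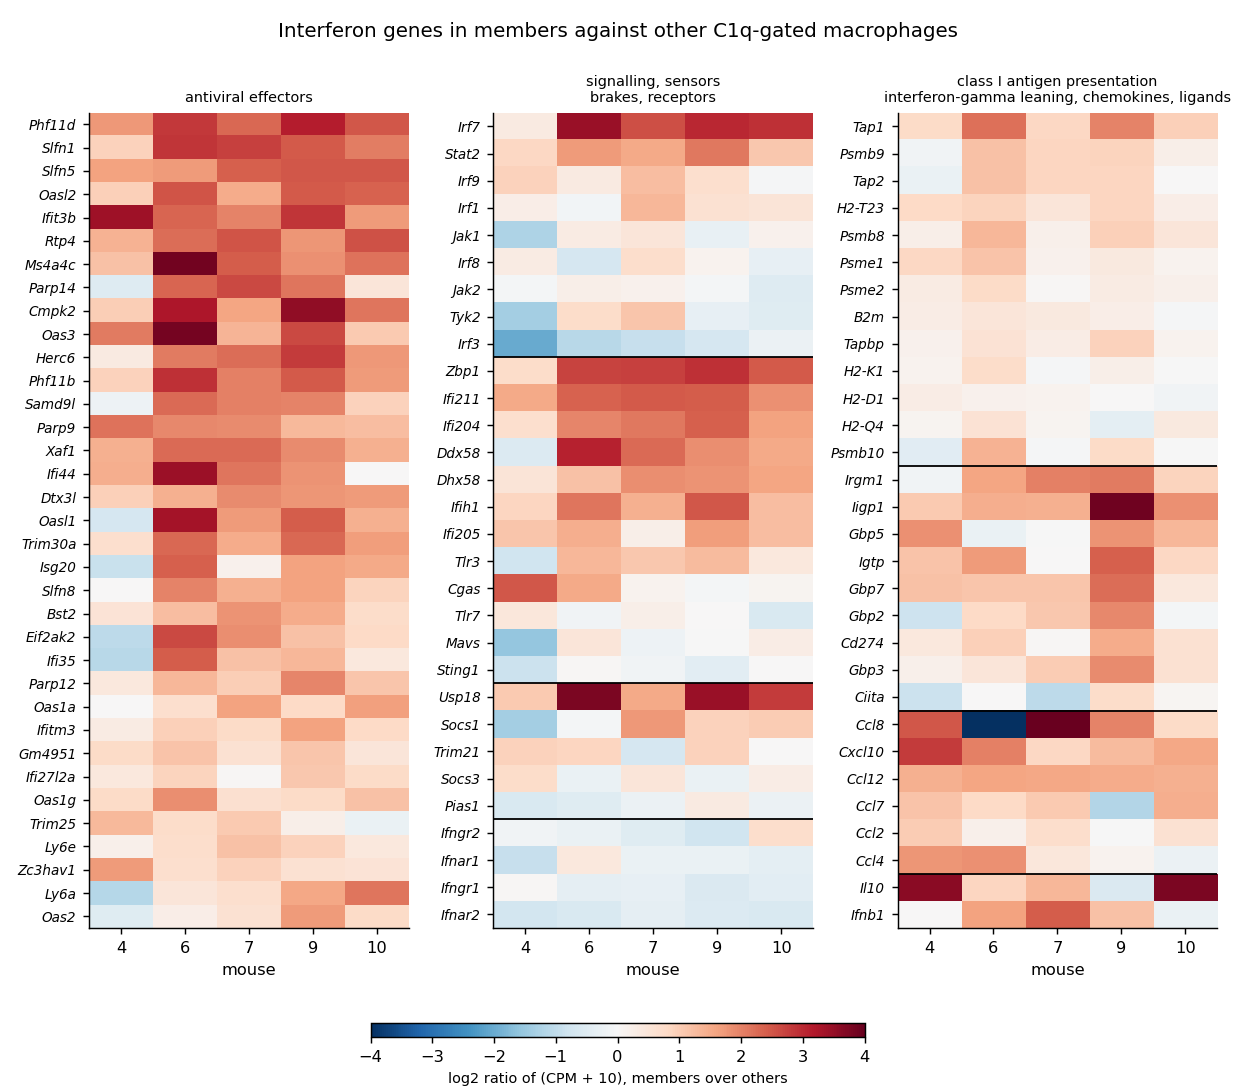
Log2 ratio of (CPM + 10) in members over other C1q-gated macrophages for the interferon-related genes kept, without 1 that is not reported here, in the 5 mice with at least 5 members. Rows are grouped by role, with black lines between roles and genes ordered by their median within each, and colours stop at -4 and 4. Most effector and sensor genes are higher in mice 6, 7, 9 and 10, the receptors are near or below 0, and Irf7 spans 0.36 in mouse 4 to 3.47 in mouse 6.

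Of the interferon genes, Ifnb1 and Ifna1 had UMIs in members. Ifnb1, the type I interferon of macrophages, had 17 UMIs in 5 of 65 members (7.69%), with 8 of them in 1 cell, and 99 UMIs in 35 of 2463 other macrophages (1.42%). It was present in 0.319% of Cd79a-positive cells, and after thinning to 3000 UMIs in 3.08% of members and 0.447% of the others. Its level in members was 0, 26.8, 74.2, 16.5 and 0 CPM in mice 4, 6, 7, 9 and 10 and 0, 2.08, 5.65, 1.87 and 2.10 CPM in the others, so that it was higher in mice 6, 7 and 9 only. Ifna1 had 1 UMI in members, and Ifna2, Ifna4, Ifna5, Ifng, Ifnl2 and Ifnl3 had 0. Il10, an anti-inflammatory cytokine, was at 308, 8.94, 102, 38.5 and 285 CPM in the same members against 15.9, 0.520, 34.4, 61.7 and 11.6 CPM in the others. It had 124 UMIs in 11 members, 52 of them in 1 cell.

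Receptor transcripts were not higher in members. Ifnar2 stood at 103, 98.3, 148, 118 and 107 CPM in the members of mice 4, 6, 7, 9 and 10 and at 176, 155, 192, 176 and 170 CPM in the others, lower in all 5 mice (median log2 ratio -0.61). Ifnar1, Ifngr1 and Ifngr2 had median log2 ratios of -0.27, -0.36 and -0.27, each higher in 1 mouse.

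Of the 10 signalling genes, 3 were higher in all 5 mice, 1 was lower and 0 were 2-fold higher in every mouse. Irf7, the amplifier of type I interferon production, was at 51.3, 250, 204, 212 and 145 CPM in members and 37.8, 13.5, 25.7, 17.4 and 10.52 CPM in the others of mice 4, 6, 7, 9 and 10. The groups did not overlap, and the median log2 ratio was 2.92. Stat2, a part of the complex that interferon activates, was also higher in all 5 mice (1.503) and Irf9 in 4 (0.68). Irf1 was higher in 4 mice (0.53) and Irf8 in 3 (0.13). Jak1, Jak2 and Tyk2 had median log2 ratios of 0.16, -0.08 and -0.33, with members above the others in 3, 2 and 2 mice. Irf3, which acts upstream of interferon production and is not induced by it, was at 8.94 to 16.1 CPM in the members of mice 6, 7, 9 and 10 against 20.9 to 30.7 CPM in the others (median log2 ratio over 5 mice -0.92), and had 0 CPM in mouse 4, where a single UMI is 17.1 CPM.

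Sensors of foreign nucleic acid formed the next group, with 6 of 12 higher in all 5 mice. Ifi211 was the only one 2-fold higher in every mouse, at 222, 340, 297, 339 and 204 CPM in the members of mice 4, 6, 7, 9 and 10 and 72.0, 57.8, 46.3, 54.7 and 49.8 CPM in the others. Zbp1, a sensor of Z-form nucleic acid, had a median log2 ratio of 2.71, Ifi204 of 1.96, Dhx58 of 1.58 and Ifih1 (MDA5) of 1.43. Ddx58 (RIG-I) was higher in 4 mice (1.84) and stood at 17.1 CPM, which is 1 UMI, in the members of mouse 4 against 29.3 CPM in its others. The adaptors showed no such difference, with -0.14 for Sting1 (under its older symbol Tmem173) and -0.01 for Mavs. Members of the Ifi200 family are close in sequence, and the counts could be split between them.

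Antiviral effectors contributed most. Of 35 kept (of 40 listed), 8 were 2-fold higher and 25 higher by any size in all 5 mice, and 0 were lower in all. Rtp4, an interferon-induced chaperone, was at 239, 232, 232, 116 and 156 CPM in members of mice 4, 6, 7, 9 and 10 and 85.4, 41.1, 32.6, 26.6 and 18.4 CPM in the others. Slfn5 was at 393, 402, 695, 633 and 446 CPM against 122, 117, 125, 105 and 72.1 CPM. For both genes the lowest value of the members lay above the highest value of the others. Oas3, which makes the activator of the RNA-degrading enzyme RNase L, had a median log2 ratio of 2.08 (range 1.05 to 3.83), Phf11d of 2.47, Ms4a4c of 2.18, Xaf1 of 1.89 and Parp9 of 1.90. Ifit3b was at 171, 53.6, 37.1, 71.6 and 26.9 CPM against 7.32, 2.60, 1.94, 1.12 and 1.23 CPM. It is a near copy and neighbour of Ifit3, so that reads may have been split between them. Oas3 and Ifit3b are the 2 genes of these 8 that passed the filter only through their level in members, so that their counts among the higher genes support nothing.

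Several other effectors were higher in the members of mice 6, 7, 9 and 10 and differed less, or the other way, in mouse 4, whose members held 58484 UMIs, so that 17.1 CPM is 1 UMI and a direction at 0 or 1 UMI cannot be read. Cmpk2, the gene beside Rsad2 and a maker of its nucleotide substrate, was at 34.2, 134, 27.8, 160 and 48.3 CPM in members against 12.2, 5.20, 2.58, 4.60 and 3.16 CPM (median log2 ratio 2.15). Cmpk2 averaged below 10 CPM in the other macrophages and passed the filter only through its level in members, so that its ratio supports nothing. Oasl1, a repressor of Irf7 translation, was at 0, 170, 74.2, 110 and 37.6 CPM against 6.10, 7.81, 15.8, 12.6 and 7.89 CPM. Eif2ak2 (PKR), the translation-blocking kinase, stood at 17.1 CPM in the members of mouse 4 against 46.4 CPM in its others, and at 53.7 to 197 CPM against 22.9 to 30.0 CPM in the other 4 mice. Parp14 and Samd9l likewise were below the others in mouse 4 (85.5 against 127 CPM and 85.5 against 100 CPM) and above them in the other 4 mice. Abundant transcripts of membrane and mitochondrial proteins differed less in ratio. Ifitm3 had a median log2 ratio of 0.78 and reached 2527 CPM over all members. The median log2 ratio was 0.76 for Ifi27l2a, 0.69 for Ly6e and 1.23 for Bst2 (tetherin).

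The negative regulators differed among themselves. Usp18, which strips ISG15 from proteins and desensitizes IFNAR2, was at 51.3, 277, 46.3, 190 and 102 CPM in the members of mice 4, 6, 7, 9 and 10 and 19.5, 10.9, 9.85, 8.34 and 6.14 CPM in the others. No value of the members fell into the range of the others, and the median log2 ratio was 2.80. Socs1 and Socs3, the suppressors of cytokine signalling, were each higher in 3 of 5 mice (0.94 and 0.29), and Pias1 was higher in 1 (-0.24).

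Genes that lean towards interferon-gamma were higher in part. Of 9 kept, 5 were higher in all 5 mice and 1, the GTPase gene Iigp1, by at least 2-fold, at 376, 170, 37.1, 231 and 102 CPM in members against 176, 56.2, 7.59, 6.34 and 21.7 CPM. Gbp2 was higher in 3 mice and below the others in mice 4 and 10, and Cxcl9 and Nos2 had no UMI in members. Ciita, the master regulator of MHC class II, had a median log2 ratio of 0.01. Among the 13 class I antigen presentation genes, 6 were higher in all 5 mice and 0 by 2-fold. Tap1, the peptide transporter, led them at 188, 170, 55.6, 138 and 75.2 CPM against 106, 29.1, 27.1, 27.2 and 34.0 CPM, and B2m had a median log2 ratio of 0.31. MHC class II genes summed to 32539, 24540, 16740, 26197 and 14445 CPM in the members of mice 4, 6, 7, 9 and 10 and 27250, 9953, 19777, 12653 and 8999 CPM in the others, below the others in mouse 7 and above them in the remaining mice.

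Chemokines were abundant in members. Ccl12, a ligand of CCR2, was the most even gene of the lists, at 3163, 974, 1242, 1051 and 714 CPM in the members of mice 4, 6, 7, 9 and 10 and 1179, 319, 420, 368 and 261 CPM in the others. Its log2 ratio stayed between 1.42 and 1.58. Cxcl10, which attracts T cells through CXCR3, was at 2154, 1850, 603, 564 and 994 CPM in members and 304, 448, 336, 229 and 336 CPM in the others, and higher in all 5 mice (median log2 ratio 1.54). In mouse 4 this rested on 1 cell, which held 118 of the 126 UMIs of its members. At the limit of 20 UMIs per 10000 its median ratio was -0.08, over mice 6, 9 and 10. Ccl8 was higher in 4 mice, with 169 of the 185 UMIs in the members of mouse 4 in 1 cell, and at 0 CPM in the members of mouse 6, and Ccl7 was higher in 4 mice and below the others in mouse 9.

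Because the limit of 10 was set on a continuous distribution, the lists were also summed in bands of the selecting genes. Antiviral effectors, without the selecting genes, summed to 3417 CPM in the macrophages at 0, 4740 CPM above 0 and below 5 UMIs per 10000, 7281 CPM from 5 to 10, 8432 CPM from 10 to 20, 11621 CPM from 20 to 40 and 15335 CPM at 40 or more. Sensors went from 415 CPM in the lowest to 2917 CPM in the highest band, and Irf7 from 9.75 to 298 CPM, also higher in each band than in the one below. With all mice pooled, the effector sums already differed between the bands below the limit. The members were thus the upper end of a graded series in these pooled counts. The other macrophages of mouse 4 summed to 7689 CPM of effectors, against 3629 to 4173 CPM in mice 6, 7, 9 and 10. Of its macrophages 17.4% reached 5 UMIs per 10000, against 1.32% to 10.2% in the remaining mice, and the order of the bands within a mouse was not tested. Receptors went the other way, from 588 to 322 CPM, and the 8 cells of the highest band came from 4 mice. Ifnb1 did not rise with the bands, at 1.12, 2.65, 38.9, 24.8, 12.6 and 0 CPM from the lowest to the highest. Its highest level lay in the band just below the limit, and members held only 17 UMIs of it. Resident genes stood at 9424 CPM in the lowest and 6414 CPM in the highest band without a steady order between them.

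**Figure D4:**
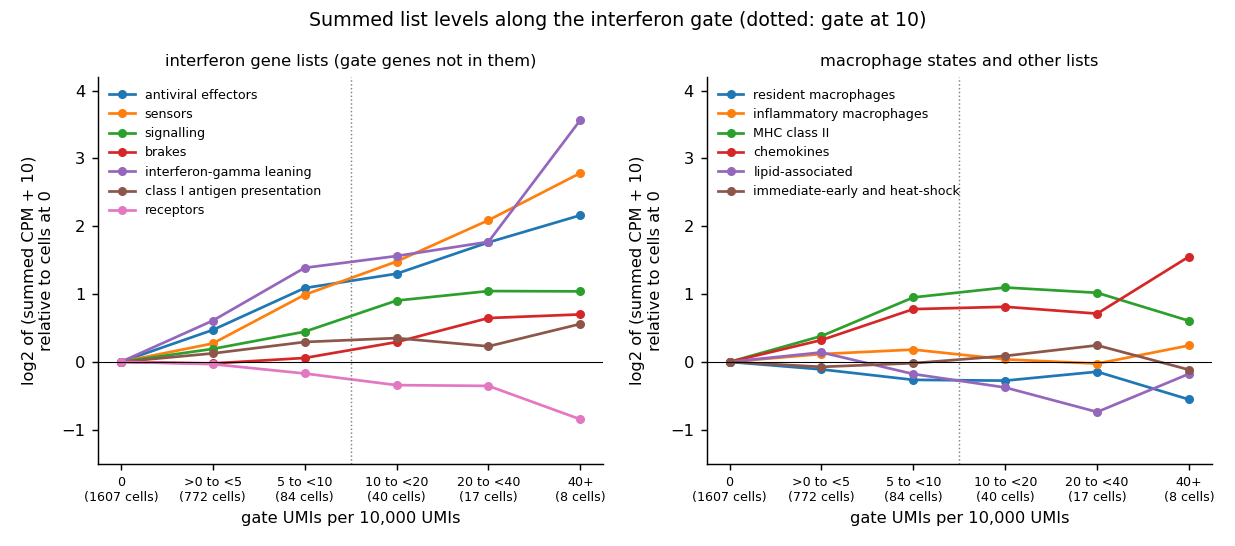
Log2 of (summed CPM + 10) of gene lists relative to the cells at 0, in C1q-gated macrophages of all mice pooled and grouped by their UMIs of the 5 selecting genes per 10000 (interferon lists on the left, macrophage states, chemokines and other lists on the right, the limit of 10 dotted). Antiviral effectors go from 3417 to 15335 CPM over the bands, receptors from 588 to 322 CPM, and the highest band holds 8 cells.

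Outside the lists, 5 of 7131 genes were 2-fold higher in the members of every mouse (0.0701%). Of these, Ifi206 and Ifi213 averaged below 10 CPM in the other macrophages and passed the filter only through their level in members. Their place in this count therefore supports nothing. Of all 7066 genes that reached 10 CPM in the other macrophages alone, 13 were 2-fold higher in every mouse. By the rule for naming, the 10 with the largest median ratio among those higher in every mouse were Ifi47 (2.54), Ifi206 (2.46), Ifi209 (2.41), Ifi213 (2.09), Phf11a (1.96), Slfn9 (1.77), Ifi203 (1.76), Znfx1 (1.71), Rnf213 (1.68) and Nt5c3 (1.60). Phf11a also passed the filter only through its level in members, so that the ranks of Ifi206, Ifi213 and Phf11a support nothing. Phf11a in mouse 4 (17.1 against 12.2 CPM) and Slfn9 in mouse 7 (9.27 against 8.56 CPM) rested on 1 UMI in members. A direction cannot be read there. Ifi47 is an interferon-inducible GTPase gene, and Ifi206, Ifi209, Ifi213 and Ifi203 belong to the same sequence-related family as Ifi204 and Ifi211, so that counts may be split among them. Ifi209 was at 188, 179, 213, 154 and 75.2 CPM in the members of mice 4, 6, 7, 9 and 10 and 48.8, 22.9, 31.5, 20.8 and 12.3 CPM in the others. Slpi, a protease inhibitor gene, was the 1 gene at least 2-fold lower in every mouse on the log2(CPM + 10) scale, with 0 CPM in the members of mice 4, 6 and 7, 13.8 CPM in mouse 9 and 1257 CPM in mouse 10, against 10.98, 71.3, 37.8, 41.3 and 3487 CPM in the others. In mouse 4, 10.98 CPM is less than 1 UMI in its members, so that a lower level is not shown there, and most UMIs of the gene came from mouse 10. The other genes named as lower were Col1a2 (-2.04), a collagen of fibroblasts, Clec4n (-1.997), Bet1l (-1.78), Hist1h1c (-1.73), Gdpd1 (-1.56), Kcnq1ot1 (-1.51), Rcan1 (-1.501), Hspb1 (-1.49) and Reps1 (-1.44). Each of these 9 genes had 0 CPM in the members of at least 1 mouse, where few UMIs were available.

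The response-element core was more frequent in front of the interferon genes than in front of all genes. It was found in 33 of the 85 list genes with a promoter in the table (38.8%), where 3.99% of all genes held it. Of the 48 genes higher in the members of every mouse, 37 had a promoter and 20 held the core (54.1%). Of the 48 kept genes that were not, 37 had a promoter and 8 held it (21.6%). This split came from the contrast that shares its cells with the selection. Of the 48 higher genes, only 42 reached 10 CPM in the other macrophages alone. The shares in the split are therefore a description and support nothing. None of the 4 receptor genes and none of 9 resident macrophage genes held these letters in the window, nor did those of Irf7, Cmpk2, Oasl1 and Ccl12.

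Surface antibodies gave a readout that the selection had not used. Members carried the macrophage antibodies. CD64 had 5.17 ± 0.584 antibody UMIs per cell in members and 4.39 ± 0.874 in the others (SD, n = 5 mice), and F4/80 had 5.13 ± 2.43 and 5.37 ± 2.64. Of 73 antibodies with counts, 0 passed an adjusted p of 0.05 in edgeR's quasi-likelihood test with mouse as a block (0% of those tested), 6 had an unadjusted p under 0.05, and the smallest adjusted p was 0.438. CD163 had 536 ± 87.1 UMIs per cell in members and 563 ± 162 in the others, and the fitted log2 ratio, which is relative to all antibody UMIs, was -0.24 ± 0.18 (SE). TIM4, a marker of self-renewing resident macrophages, had 2.00, 15.4, 40.1, 26.7 and 69.0 UMIs per cell in the members of mice 4, 6, 7, 9 and 10 and 29.3, 45.1, 18.8, 20.1 and 89.8 in the others, and its log2 ratio was -0.91 ± 0.54 (edgeR adjusted p = 0.876). CD169 (0.13 ± 0.20), CD14 (0.05 ± 0.22), CD11b (-0.11 ± 0.17) and I-A/I-E, the MHC class II antibody (0.30 ± 0.35), had ratios smaller than 1 SE. The CCR2 antibody was among the 6 and was named after its values were seen: it had 0.200, 0.750, 0.571, 0.292 and 1.08 UMIs per cell in members and 0.109, 0.245, 0.282, 0.248 and 0.229 in the others, higher in 5 of 5 mice. Relative to all antibody UMIs it was higher in 4 of 5 mice, with 127 against 138 CPM in mouse 9, and the log2 ratio was 0.99 ± 0.39 (edgeR adjusted p = 0.438). Its mean of 0.578 UMIs per cell in members and 0.223 in the others lay within the range of the isotype controls, which had 0.681 and 0.494 (Rat IgG1), 0.516 and 0.537 (Hamster), 0.0641 and 0.0933 (Rat IgG2b) and 0 and 0 (Rat IgG2a). CD127, with 0.117 and 0.204, lay within that range too. The other 5, named likewise, were CD103 (-1.14 ± 0.34), CD63 (-0.53 ± 0.16), CD127 (-1.41 ± 0.53), ITGB7 (-1.06 ± 0.41) and SiglecH (-0.61 ± 0.24). CD103 and ITGB7 had 0.426 and 0.579 UMIs per cell in members, within the isotype range, and 0.933 and 1.07 in the others. Relative to all antibody UMIs both were higher in the members of mouse 10 (128 against 114 CPM and 385 against 248 CPM).

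Whether members differed by genotype could be asked only with mouse 4 against mice 6, 7, 9 and 10. These comparisons thus set 5 cells of 1 Jak2WT mouse against 4 mutant mice, and mouse and genotype cannot be told apart in them. Rsad2 was at 68.4 CPM in the members of mouse 4 and at 429, 501, 603 and 231 CPM in those of the 4 mutant mice, and Ifit3 was at 308 CPM against 483, 324, 226 and 247 CPM. Both genes chose the members, whose summed level of the selecting genes lay between 11.6 and 16.7 UMIs per 10000 in mouse 4, so that these are descriptions. Of 2424 genes, 0 passed (0%), 215 had an unadjusted p under 0.05 (8.87%), and DESeq2 called 1. Among the 73 interferon list genes tested, 16 had an unadjusted p under 0.05, of which 4 were higher and 12 lower in the mutant mice. On simulated data this fit recovered 0 of 100 genes changed 4-fold, so that the count of 0 does not show that genotype had no effect. Of the 73 antibodies, 0 passed (0%) and 8 had an unadjusted p under 0.05. The smallest adjusted p was 0.134, and the isotype control Rat IgG1 was among the 8. The TIM4 antibody had 2.00 UMIs per cell in the members of mouse 4 and 15.4, 40.1, 26.7 and 69.0 in those of mice 6, 7, 9 and 10, and I-A/I-E had 1017 against 383, 323, 449 and 599.

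The interaction asked whether genotype differed more in members than in the other macrophages of the same mice. Of 8828 genes, 1 passed (0.0113%) and 494 had an unadjusted p under 0.05. That gene was Cxcl13, a B cell attractant (log2 interaction -17.18 ± 1.33, edgeR adjusted p = 7.09e-07). Its 359 CPM in the members of mouse 4 were 21 UMIs of 1 cell. It was at 0 CPM in the members of mice 6, 7, 9 and 10 and at 3.66, 174, 43.6, 16.4 and 212 CPM in the other macrophages of mice 4, 6, 7, 9 and 10. The call was thus carried by 1 cell of the only Jak2WT mouse compared and cannot be read as a difference between genotypes. At the limit of 5 UMIs per 10000 its adjusted p was 0.675.

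Since only 1 Jak2WT mouse had 5 or more members, the interferon genes were also compared between genotypes in all C1q-gated macrophages, 5 mice against 5. Of 9360 genes, 0 passed in edgeR (0%), 909 had an unadjusted p under 0.05 (9.71%), and DESeq2 called 28. Of the 93 interferon list genes tested, 10 had an unadjusted p under 0.05, 2 higher and 8 lower in Jak2V617F Myel, a share close to that of all genes. The fitted log2 difference was above 0 in 28 and below 0 in 65 of them, with a median of -0.18 against -0.01 for all genes. All 13 class I genes were below 0 (median -0.33), and 0 of them had an unadjusted p under 0.05. Jak2WT mice 1 and 4 stood apart in these genes: Psmb8 was at 315 and 415 CPM in them, 133 to 162 CPM in the other 3 Jak2WT mice and 139 to 186 CPM in the mutant mice, and Tap1 at 71.2 and 112, 24.2 to 30.0 and 21.1 to 36.9 CPM.

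Among all genes, 0.598% lay higher in all 5 mutant mice than in all 5 Jak2WT mice and 0.716% lower. Oasl1 was the 1 list gene without overlap of the genotypes, and the gap was narrow (8.74 CPM in mouse 1, 8.83 CPM in mouse 10). It was at 8.74, 5.67, 1.55, 5.69 and 4.54 CPM in Jak2WT mice 1 to 5 and at 16.7, 16.8, 13.2, 16.8 and 8.83 CPM in Jak2V617F Myel mice 6 to 10, a log2 difference of 1.48 ± 0.30 (SE; edgeR adjusted p = 0.346, DESeq2 adjusted p = 0.0134). Of the selecting genes, Rsad2 averaged 7.99 ± 4.79 CPM in Jak2WT and 19.4 ± 11.8 CPM in Jak2V617F Myel (SD, n = 5 each), and Isg15 averaged 62.7 ± 41.5 and 109.8 ± 37.9 CPM. For both genes the ranges overlapped. Summed over the 5 selecting genes, the level was 1.20 ± 0.853 UMIs per 10000 in Jak2WT and 1.72 ± 0.686 in Jak2V617F Myel.

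Of the 8 list genes with an unadjusted p under 0.05 and a lower fitted level in the mutant mice, 0 passed the adjusted test, and the genotypes overlapped in each. Ccl12 averaged 774 ± 440 CPM in Jak2WT and 351 ± 67.1 CPM in Jak2V617F Myel (SD, n = 5 each; log2 difference -1.10 ± 0.37, edgeR adjusted p = 0.381), but stood at 215 CPM in Jak2WT mouse 5, below all 5 mutant mice (275 to 434 CPM). Iigp1 was at 203, 23.2, 17.0, 189 and 11.5 CPM in Jak2WT mice 1 to 5 and at 62.5, 8.09, 12.8, 16.1 and 24.3 CPM in mice 6 to 10 (-1.83 ± 0.83, edgeR adjusted p = 0.512). Samd9l averaged 86.7 ± 20.7 and 60.9 ± 6.79 CPM (-0.48 ± 0.14, edgeR adjusted p = 0.38), with Jak2WT mouse 5 at 55.9 CPM inside the mutant range of 53.6 to 71.8 CPM. The Jak2WT mean of Iigp1 was set by mice 1 and 4, and the remaining Jak2WT mice lay within the range of the mutant mice. Jak2 itself was at 32.5 ± 6.37 and 27.8 ± 4.72 CPM (-0.17 ± 0.16, edgeR adjusted p = 0.795), and its counts did not separate the alleles.

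**Figure D5:**
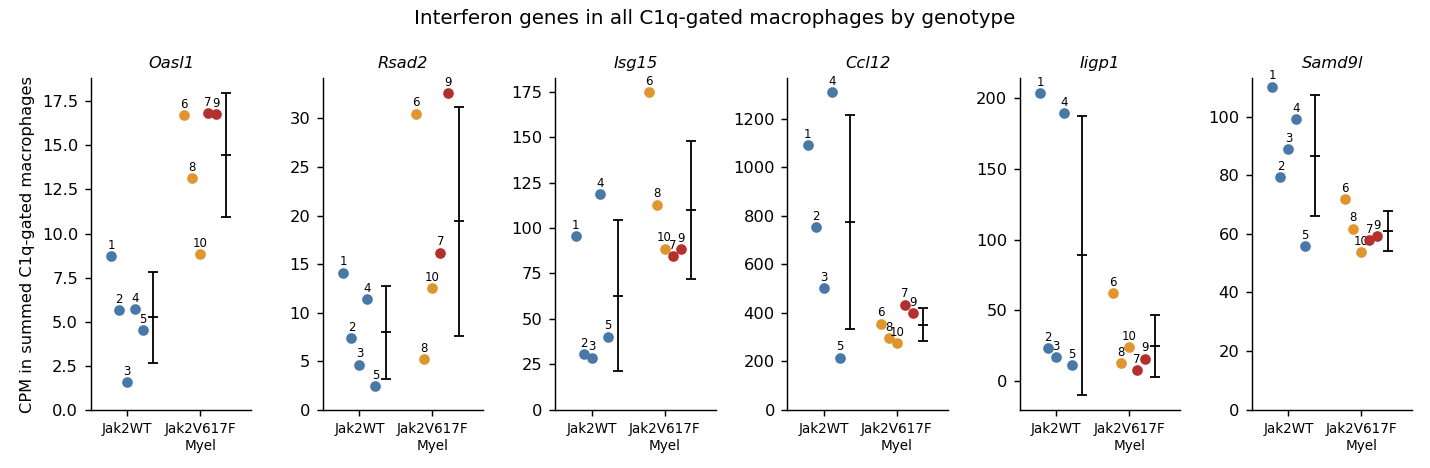
CPM of Oasl1, Rsad2, Isg15, Ccl12, Iigp1 and Samd9l in all C1q-gated macrophages of each mouse, with 1 numbered point per mouse (blue Jak2WT, orange dilation, red aneurysm) and black bars for the mean ± SD of 5 Jak2WT and 5 Jak2V617F Myel mice. The axis starts at 0 except for Iigp1, whose SD bar passes below 0. The genotypes overlap for Rsad2 and Isg15 and do not for Oasl1, where mouse 1 (8.74 CPM) lies just below mouse 10 (8.83 CPM).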

How the data were processed

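The authors deposited 1 matrix of UMI counts of genes, antibodies and hashtags for the pool of 10 mice, made with Cell Ranger 6.0.2 per the file headers. The submitters' processing notes name mm10 and Seurat 3.0.0. The matrix held 8471 barcodes, 32285 genes and 75 antibodies. Cells were assigned to mice and gated as described in the report, and counts were summed per mouse and class (878113 to 8401746 gene UMIs per mouse in macrophages, 58484 to 363364 in the members of the 5 mice compared), so that the fewest members limit the precision. Members and gene lists were chosen with earlier results of these data known.

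Transcripts of members and other macrophages were described as log2(CPM + 10) for genes with a mean of at least 10 CPM. Genotype and antibody comparisons used edgeR 4.0.16 quasi-likelihood tests (R 4.3.3, TMM, low counts filtered for genes, Benjamini-Hochberg adjustment, threshold 0.05), with mouse as a block between classes of the same mice. Shares were compared by exact permutation over mice. DESeq2 1.42.0 and Seurat 5.3.0 (hashtag calls by HTODemux) served as alternatives, beside other limits, filters and leaving out each mouse. Each mouse had its own number, so that groups were not paired. Genes named outside the lists were up to 10 higher and 10 lower by median ratio among those on 1 side in every mouse, and listed genes and a preset choice of antibodies could be named. On simulated data the fit on all macrophages recovered 95 of 100 genes changed 4-fold and 66 of 100 changed 2-fold with 8 false calls among 9360 genes, and the interaction recovered 1 of 100 changed 4-fold among 8828. All intervals and limits cover counting error only. Results for 1 listed gene are not reported here, although it is part of the list counts.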

Additional observations from a re-analysis of the deposited data

Results flagged for a closer look

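Several single values stood far from the other mice of their group by Dixon's criterion, which marked 6 of the 52 groups tested, where chance marks about 1 in 20. The share of interferon-induced macrophages in Jak2WT mouse 4 was 7.25%, against 0% to 1.46% in the other 4 Jak2WT mice, and rested on 5 of 69 cells. The level of the 5 selecting genes in all macrophages of mouse 6 was 2.92 UMIs per 10000, the highest of the Jak2V617F Myel mice. Among these mice Trim21, a ubiquitin ligase and antibody receptor, was at 9.18 CPM in mouse 8 and Irf9 at 47.2 CPM in mouse 6, each apart from the other 4. The CD163 antibody had 380.4 UMIs per cell in the members of mouse 6, below the other 4 mice compared, and the CD11b antibody had 777.9 UMIs per cell in the other macrophages of mouse 10, above them.

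Cxcl13 passed the test of the interaction (log2 interaction -17.18, edgeR adjusted p = 7.09e-07), but the Jak2WT members were those of mouse 4 alone and their value was 21 UMIs in 1 cell. At the limit of 5 UMIs per 10000 the adjusted p was 0.675, and the value cannot be read as a difference between genotypes.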

How the results depend on the processing

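The share comparisons turned on the limit and on single mice. At 5 UMIs per 10000 the difference was -0.0484 points for genotype and -0.484 for aneurysm, and at 20 it was 1.34 points for genotype (exact permutation p = 0.0238) and 1.73 for dilation (p = 0.0357). After thinning it was 1.48 points for genotype, 1.98 for dilation and -0.00719 for aneurysm. Without the deepest 5% of macrophages it was 0.441 points for genotype, 0.220 for dilation and 0.688 for aneurysm. Leaving out 1 mouse gave 0.233 to 2.04 points for genotype, -0.162 (without mouse 6) to 2.02 for dilation and -0.943 (without mouse 9) to 2.003 for aneurysm. The 17 genes 2-fold higher in members were 2 at the limit of 5, 69 at 20, 70 with at least 10 members a mouse, 29 against macrophages below 3, and 17 to 40 leaving out 1 mouse, an alternative chosen after seeing the data. The 12 list genes became 2, 34, 34, 21 and 12 to 28. The 1 gene 2-fold lower became 46 at 20, 37 with at least 10 members, 14 with a pseudocount of 1 CPM and 2 to 8 leaving out 1 mouse, with 0 list genes among them. Antibody calls between members and others were 1 (CD226) with at least 10 members and 0 with no replicate block for mouse. Calls by genotype in members were 3 at the limit of 5, 1 with DESeq2 and 50 without the filter. For the interaction there were 2 at the limit of 5, 2 with DESeq2 size factors and 2 to 20 leaving out 1 mouse (20 without mouse 6). For antibodies by genotype there were 1 at the limit of 5, 2 with size factors, 2 without the deepest 5% of macrophages and 0 to 2 leaving out 1 mouse. All macrophages gave 28 with DESeq2 and 0 to 2 leaving out 1 mouse. The sign turned for the CD14 antibody (-0.000548 at 5, -0.51 at 20, -0.45 with at least 10 members, -0.03 without mouse 4, -0.13 to 0.18 leaving out 1 mouse), CD11b (0.0143 with size factors, 0.0939 with cells as library size), I-A/I-E (-0.21 without the deepest 5%), TIM4 by genotype in members (-0.0539 at 5) and the Cxcl10 ratio (-0.0813 at 20). The cause was not tested. Fits by genotype in members could not be made at the limit of 20, with at least 10 members or without mouse 4, since no Jak2WT mouse was left.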
